A study of Nannochloropsis oceanica with 44 samples.

Results

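Of the 2489 genes in the deposited tables, 92 (3.70%) were lower by more than 1 on the log2 scale, which is 2-fold, at 24 h of nitrogen deprivation than at 6 h. They are transcripts of Nannochloropsis oceanica CCMP1779, a wild-type marine alga grown in liquid culture under continuous light. The members were chosen on the deposited values by 3 conditions. The value at 24 h N- (deprivation) had to be more than 1 below that at 6 h N-. The value at 72 h N- could be at most 1 above that at 6 h. Genes whose value at 72 h NR (nitrogen resupply) exceeded all 9 other times by more than 1 were left out. The first condition alone held for 98 genes, the second removed 0, and the third removed 6, of which 5 belonged to the authors' cluster 4 and 1 to cluster 3.

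Cells were washed into medium without nitrogen and sampled after 6, 12, 24, 48 and 72 h. Others, deprived for 72 h, were put back into medium with nitrogen and sampled after the same hours. Libraries number 44 in the labels, 4 for each of 11 groups that include the start of deprivation (0 h), and the protocols speak of 2 biological replicates per time. The tables hold 1 value per gene for each of 10 time points and no column for 0 h, so no value has an error, depth is unknown, and no difference between time points could be tested. Whether a difference exceeds the spread between cultures therefore cannot be said, and "higher" and "lower" below mean past the 2-fold limit unless a value is given. RNA came from whole cultures, so fewer cells carrying a transcript and less of it per cell cannot be told apart.

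Nitrogen is needed for amino acids, nucleic acids and chlorophyll, and algae that run out of it stop dividing, lose photosynthetic pigment and store carbon as oil and carbohydrate. When nitrogen returns, they rebuild the photosynthetic apparatus and use the stored oil as they resume growth. In the green alga Chlamydomonas, transcripts of photosynthesis and ribosomal protein genes are among those that go down in nitrogen deprivation. The tables name genes only by the identifiers of an annotation pipeline, and 0 of the 2489 identifiers occurred among the 160 genes of the reference table, so functions and sequences of the members are not given here. An identifier beginning with maker is a gene model that the pipeline backed with evidence, and one beginning with augustus_masked or snap_masked is a prediction on masked sequence. The number after nanno_ is the contig, by which genes are called below after their first mention.

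The members came from all 4 of the authors' clusters, which were formed from the same values. Cluster 4 gave 53 of the 92 (57.6%), against 16.8% of all genes, cluster 1 gave 26 (28.3%, against 32.1%), cluster 3 gave 8 (8.70%, against 35.0%) and cluster 2 gave 5 (5.43%, against 16.1%). As a share of each cluster, members were 12.7% of cluster 4, 3.26% of cluster 1, 1.25% of cluster 2 and 0.917% of cluster 3. Gene models backed by evidence made up 34 members (37.0%) and 34.8% of all genes, predictions by augustus 38.0% and 35.7%, and predictions by snap the rest. The kinds of gene model were thus spread over the members much as over all genes.

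At 24 h N- the members were lower than at 6 h N- by a median of 1.28 on the log2 scale, or 2.42-fold (quartiles over genes of the difference -1.63 and -1.11). Over all genes, 3.94% were lower by more than 2-fold in this comparison, and 3.17% higher, shares from which nothing is read because the comparison chose the members. The largest fall was that of augustus_masked-nanno_1644-abinit-gene-0.9, a cluster 4 gene. Its deposited levels were 16.57, 14.28, 11.03, 9.79 and 9.47 from 6 h to 72 h N-, and 9.45, 14.02, 15.30, 17.69 and 16.17 from 6 h to 72 h NR. Its level was thus 46.4-fold lower at 24 h than at 6 h N-, stayed low through 6 h NR, and was highest at 48 h NR. The gene with the next largest fall was snap_masked-nanno_712-abinit-gene-0.3, also of cluster 4. It stood at 11.46, 8.14, 6.93, 6.59 and 6.69 in deprivation and at 8.35, 11.49, 11.54, 12.48 and 11.51 in resupply. Most of its fall, 3.32 of 4.53 on the log2 scale, was there by 12 h N-, and it was back at its 6 h N- level by 12 h NR. Most other members lay nearer to the limit. Just inside it were augustus_masked-nanno_4790-abinit-gene-0.0, with 8.17 at 6 h and 7.17 at 24 h, and snap_masked-nanno_859-abinit-gene-0.15 (difference -1.01). Just outside it were maker-nanno_4688-snap-gene-0.85 and augustus_masked-nanno_272-abinit-gene-0.1 (both -0.99).

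The value at 12 h N- divided the members. It entered their choice only through the last condition, the comparison of 72 h NR with all other times that removed 6 genes. At 12 h 29 members were already more than 2-fold below 6 h N- and 1 was more than 2-fold above it, against 1.65% of all genes below and 1.69% above. The 6 h value also entered the choice of members, so part of the excess over all genes is fixed by that choice. These 29 are called early members and the other 63 later members. At 12 h the early members had reached a median of 85.8% of their 24 h fall and the later members 4.20%, a contrast that the split itself largely fixes. Of the later members, 27 were still above their 6 h level at 12 h as deposited, by any amount. With columns centred on the median and on the cluster medians these became 13 and 14. Of all 2489 genes, 1334 were above on the median centring. The early members had the higher levels at 6 h N-, with a median of 11.61 (9.06 to 16.57) against 9.43 (3.56 to 14.35), and the ranges overlapped. The 6 h value also entered the split, so part of this difference may be fixed by it. Cluster 1 held 19 of the early and 7 of the later members, and cluster 4 held 10 and 43. Clusters 2 and 3 held no early member.

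**Figure D1:**
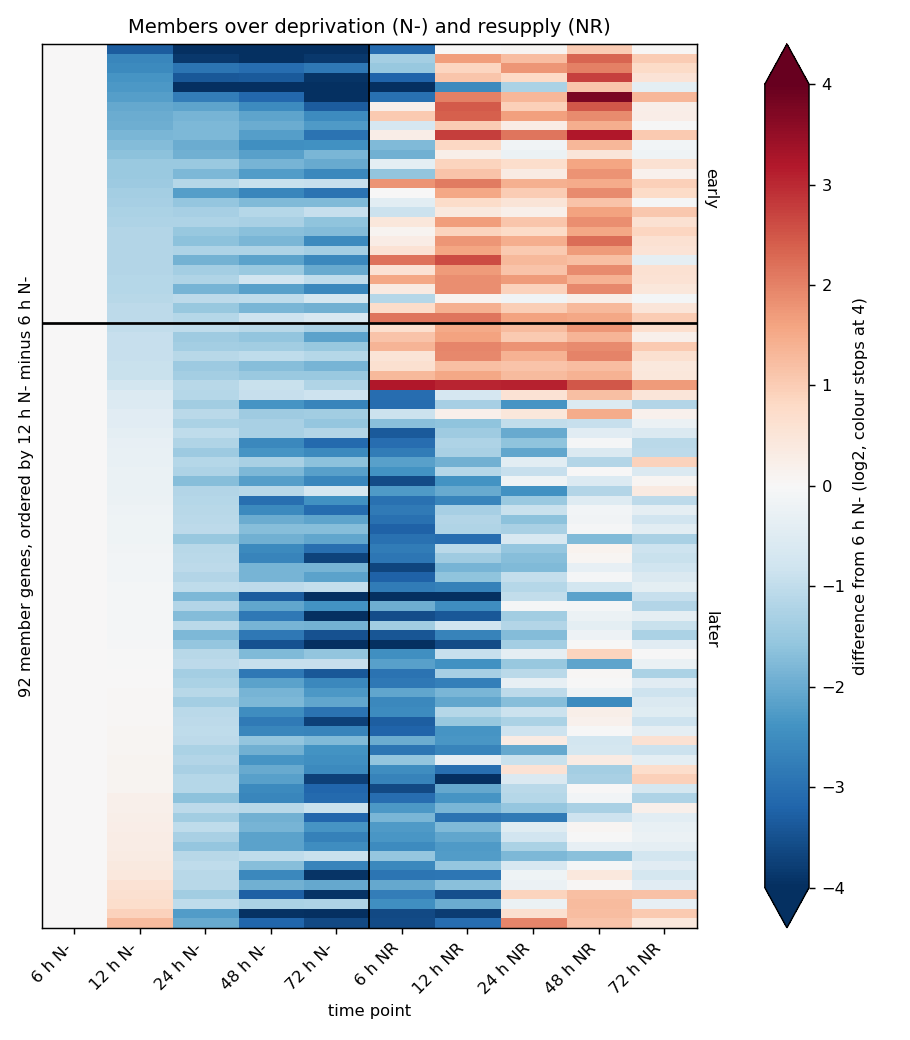
Each row is 1 of the 92 members and each column a time point, with colour for the log2 difference from the same gene's 6 h N- value (blue lower, red higher). The 29 early members above the line were mostly red from 12 h NR, whereas most of the 63 later members below it stayed blue at 6 h and 12 h NR.

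The extremes at 12 h went opposite ways. The largest early differences were those of the contig 712 gene and of maker-nanno_758-snap-gene-0.10, which was the cluster 1 member with the largest 24 h fall. The latter stood at 11.15, 8.55, 7.30, 7.02 and 7.28 in deprivation and at 9.79, 12.83, 12.39, 13.47 and 12.16 in resupply. All its values from 12 h NR on lay above those of deprivation. By contrast, maker-nanno_1060-augustus-gene-0.15 of cluster 3 was higher at 12 h than at 6 h N- (8.53 and 7.25) and then dropped to 5.23, 4.07 and 3.63. In resupply it stood at 3.67, 4.20, 9.20, 8.38 and 7.67, so it stayed low at 6 h and 12 h and was high from 24 h on. Of the members that were above 6 h N- at 12 h, it and augustus_masked-nanno_445-abinit-gene-0.2 (7.55 and 8.46, then 5.32 at 24 h) were the farthest above.

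Between 12 h and 24 h N- 43 members were lower and 0 higher, against 9.12% of all genes lower and 1.93% higher, and the 24 h value chose the members. The lower ones were 39 later and 4 early members. The largest differences in this step were those of the contig 1060 gene (-3.29) and of the contig 1644 gene (-3.25). Early members moved by a median of -0.26 in this step and later ones by -1.12. The split at 12 h largely fixes this contrast too, so nothing is read from it. In 6 early members the 24 h value was above the 12 h value, by up to 0.31 in augustus_masked-nanno_2923-abinit-gene-0.0.

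After 24 h N- the members as a whole moved little beyond what all genes did. Their median step from 24 h to 48 h N- was -0.44 as deposited, and 0.03, -0.00 and -0.20 under the centrings on the median, the cluster medians and the upper quartile. From 24 h to 48 h N- 21 members were lower by more than 2-fold, against 20.8% of all genes, a like share, and 0 were higher, against 0.0804%. Of the 21, 20 were later members. The median step was -0.75 in later and -0.22 in early members. With columns centred on the median over all genes they became -0.29 and 0.24, so the direction for early members turned with the scaling. The largest steps down were those of snap_masked-nanno_961-abinit-gene-0.4, from 8.49 to 6.57, and of augustus_masked-nanno_649-abinit-gene-0.2, a difference of -1.87. From 48 h to 72 h N- 5 members were lower, all of them later members, and 0 were higher, against 9.92% and 0.201% of all genes. The lowest of these steps were those of maker-nanno_599-augustus-gene-0.20 (a difference of -1.54) and augustus_masked-nanno_28-abinit-gene-0.4 (-1.51). At 72 h N- the early and later members stood at nearly the same distance below 6 h, with medians of -2.43 and -2.38. Of the 92, 86 were more than 2-fold lower than at 6 h by 48 h and 82 by 72 h, against 29.6% and 43.2% of all genes. At either time 0 were higher, against 4.10% and 4.78%. The 6 h value chose the members and the second condition barred a higher value at 72 h, so nothing is read from these shares.

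**Figure D2:**
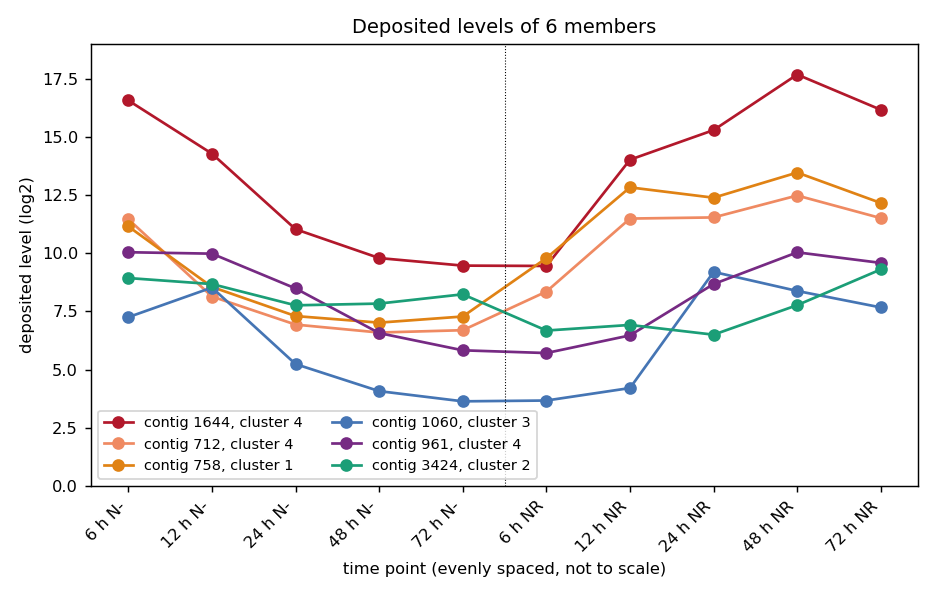
Deposited log2 levels of 6 members at the 10 time points, 1 line per gene, named by contig and cluster. The contig 1644 gene fell from 16.57 to 9.47 in deprivation and reached 17.69 at 48 h NR, and the contig 3424 gene, of cluster 2, stayed between 6.50 and 9.30 throughout.

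The 5 cluster 2 members had shallow profiles in deprivation. The one with the largest fall, augustus_masked-nanno_3424-abinit-gene-0.0, stood at 8.93, 8.67, 7.76, 7.84 and 8.23 in deprivation and at 6.68, 6.92, 6.50, 7.77 and 9.30 in resupply. Its lowest values thus came after nitrogen was returned, not in deprivation. Of the 5, 0 were more than 2-fold lower at 48 h than at 24 h N-, and 4 were more than 2-fold lower at 6 h NR than at 72 h N-. This is also the course of cluster 2 as a whole, whose 401 genes had a median level of 9.48 at 24 h N-, 9.44 at 48 h N-, 9.48 at 72 h N- and 7.13 at 6 h NR. The 2 members least like the median profile of the 92 were also of cluster 2, augustus_masked-nanno_201-abinit-gene-0.9 (Pearson r -0.01 over 10 time points) and snap_masked-nanno_2072-abinit-gene-0.4 (r 0.01). Most like it were the contig 1644 gene (r 0.98) and augustus_masked-nanno_383-abinit-gene-0.20 (r 0.94). These correlations describe profiles that the members themselves make up.

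In resupply early and later members differed, and so did the clusters. At 6 h NR 33 members were higher than at 72 h N- and 10 were lower, against 28.8% and 22.7% of all genes. Among early members 23 of 29 lay higher and none lower, and their differences had a median of 1.93. Later members were split, with 10 of 63 higher, another 10 lower and a median of 0.03. The rise went with the cluster, and cluster 4 held only 5 of the 33. In cluster 1 the median level went from 10.26 to 12.67 in early and from 10.15 to 13.42 in later members. Over all genes of cluster 1 it went from 10.46 to 12.36. In cluster 4 it went from 8.57 to 8.78 in early and from 7.06 to 6.31 in later members. The largest rises were those of snap_masked-nanno_4937-abinit-gene-0.6, an early member that went from 7.91 to 12.67, and of the later member snap_masked-nanno_3843-abinit-gene-0.2, which went from 6.56 to 10.96. Both belong to cluster 1. The largest falls were those of a pair of later members of cluster 4, augustus_masked-nanno_901-abinit-gene-0.24 (8.90 to 6.70) and maker-nanno_742-augustus-gene-0.21 (8.70 to 6.52). Under the 3 centrings the early median lay between 1.20 and 2.26, and the later median became 0.36, 0.30 and, on the upper quartile, -0.70, so no direction is given for the later members.

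By 12 h NR the difference between early and later members was wider. Relative to 72 h N-, 28 of 29 early members were past 2-fold upward and none downward. Their median was 3.71 (0.83 to 6.07), which is 13.1-fold. Later members had 23 of 63 up, 5 down and a median of 0.57 (-1.74 to 4.24). In all genes 29.2% were higher and 27.2% lower. The 1 early member not past 2-fold lay at 0.83. The 23 later members that were higher were the 7 of cluster 1 and 16 of cluster 4. The 7 had missed the early limit narrowly, with 12 h values between 0.97 and 0.74 below 6 h N-. Cluster and timing go together, and the clusters were formed with the resupply values, so the comparison was repeated within clusters. Within cluster 4 the medians were 3.72 for 10 early and 0.64 for 43 later members. In cluster 1, median levels were 10.26 (72 h N-) and 14.04 (12 h NR) for 19 early members. For its 7 later members they were 10.15 and 13.87. Early and later members thus rose nearly alike in cluster 1, and the contrast was seen within cluster 4 only. Over all clusters, leaving out the 7 contigs that held 2 or more members gave medians of 3.33 for 23 early and 0.58 for 54 later members. Under the 3 centrings the early median lay between 3.20 and 4.13 and the later median between 0.06 and 0.99. No test of the difference between early and later members was possible with 1 value per time point.

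**Figure D3:**
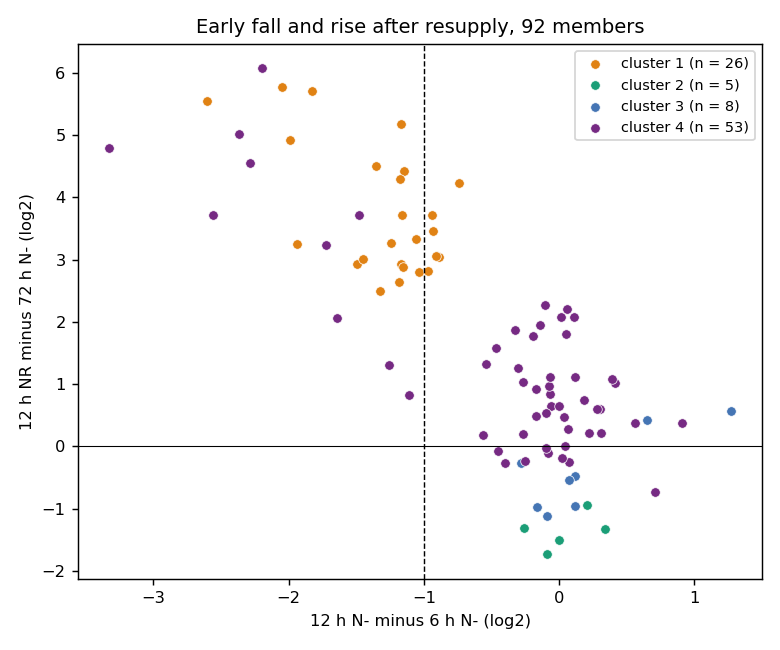
Each point is 1 of the 92 members, coloured by the authors' cluster, with the log2 difference between 12 h and 6 h N- on the x axis and that between 12 h NR and 72 h N- on the y axis. All 29 points left of the dashed limit at -1 lie above 0, at 0.83 to 6.07, and most points to its right lie lower.

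From 6 h to 12 h NR alone, whose values entered the choice of members only through the last condition, 46 members were higher and 2 lower, against 10.8% and 13.8% of all genes. All 29 early members moved up, 23 of them past 2-fold, with a median of 1.45. In later members the median was 0.54, with 23 higher and 2 lower. The largest steps were those of maker-nanno_4100-augustus-gene-0.5, from 9.83 to 14.85, and the contig 1644 gene, from 9.45 to 14.02. The 2 lower members were the contig 599 gene of cluster 3, with a difference of -1.99, and snap_masked-nanno_59-abinit-gene-0.6 of cluster 4, from 8.69 to 7.58. The median over all members was 0.94 as deposited and between 0.94 and 1.15 under the 3 centrings.

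Between 12 h and 24 h NR most early members moved down, few of them past 2-fold as deposited, and part of the later ones moved up on that scale. Over all members 26 were higher and 3 lower, against 49.8% and 10.2% of all genes. Of the 26, 25 were later members, and all 8 members of cluster 3 were among them, with a median of 3.84. The contig 1060 gene rose most, by 4.99, followed by the contig 445 gene of cluster 4, by 4.43, from 3.76 to 8.19. Early members had a median of -0.53, with 2 lower and 1 higher. The lowest steps were those of augustus_masked-nanno_1033-abinit-gene-0.0 (12.62 to 11.13) and the contig 4937 gene (13.10 to 11.80). The median level of all genes moved from 1.25 below its 6 h N- value to 0.51 above it in this interval. After centring, early members stayed lower, with medians between -2.29 and -1.40, whereas the later median of 0.64 turned to between -1.12 and -0.23. With the centrings on the median and the cluster medians 27 of the 29 early members were lower by more than 2-fold.

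At 48 h NR most early members were at their highest on the deposited scale, a peak time that turned with the scaling. Against 6 h N-, their centred medians were higher at 12 h than at 48 h NR, with 2.79 and 1.39 (median), 2.65 and 1.54 (cluster medians), and 1.46 and 1.17 (upper quartile). From 24 h to 48 h NR 34 members were higher and 4 lower, against 8.04% and 20.0% of all genes. The contig 4100 gene named above went from 14.16 to 16.61 and the contig 1644 gene from 15.30 to 17.69. Early and later members moved alike in this step, with medians of 0.81 and 0.78. The 4 lower members were later members, led by augustus_masked-nanno_3675-abinit-gene-0.0 (9.01 to 7.06) and maker-nanno_1057-augustus-gene-0.7 (9.00 to 7.82), both of cluster 3. The highest of the 10 values fell at 48 h NR in 23 of the 29 early members and at 12 h NR in the other 6. Later members had it at 6 h N- in 20 cases, at 48 h NR in 17 and at 12 h N- in 15. By 72 h NR levels had come down again, with 30 members lower than at 48 h and 9 higher, against 11.4% and 5.46% of all genes. All 29 early members moved down, 19 of them past 2-fold, with a median of -1.25. The 9 that were higher were later members, led by the contig 599 gene (8.88 to 11.13) and snap_masked-nanno_445-abinit-gene-0.6 (3.33 to 5.42), and 8 of the 9 belonged to clusters 2 and 3.

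Most early members went above the whole range of their deprivation values, and most later members did not. At 12 h NR 19 of 29 early members (65.5%) were more than 2-fold above their own highest deprivation value, as were 7 of 63 later members (11.1%) and 24.1% of all genes. At 48 h NR these were 27 (93.1%), 9 (14.3%) and 9.20%. Of the other 365 genes of cluster 4, 0 were that far above at 12 h NR and 0.548% at 48 h NR. For cluster 1, which held 19 of the 29, no share was computed. Its 798 genes had median levels of at most 10.47 in deprivation, 12.05 at 12 h NR and 10.82 at 48 h NR. Levels above those of deprivation at 12 h NR were thus also the course of cluster 1 as a whole. Whether early members went farther above than the other genes of cluster 1 was not tested. These counts were made on the deposited scale only. Measured against 6 h N-, the early medians from 12 h to 72 h NR were 1.54, 0.99, 1.61 and 0.54. Later members had -1.83, -0.91, -0.06 and -0.42 at these times. Early members of cluster 1 and of cluster 4 differed at first: at 6 h NR the 19 of cluster 1 had a median of 0.35 with 1 of them lower, and the 10 of cluster 4 one of -1.85 with 9 lower. Under the 3 centrings between 20 and 26 of the 29 early members were more than 2-fold above 6 h N- at 48 h NR, and between 5 and 13 of the 63 later ones.

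**Figure D4:**
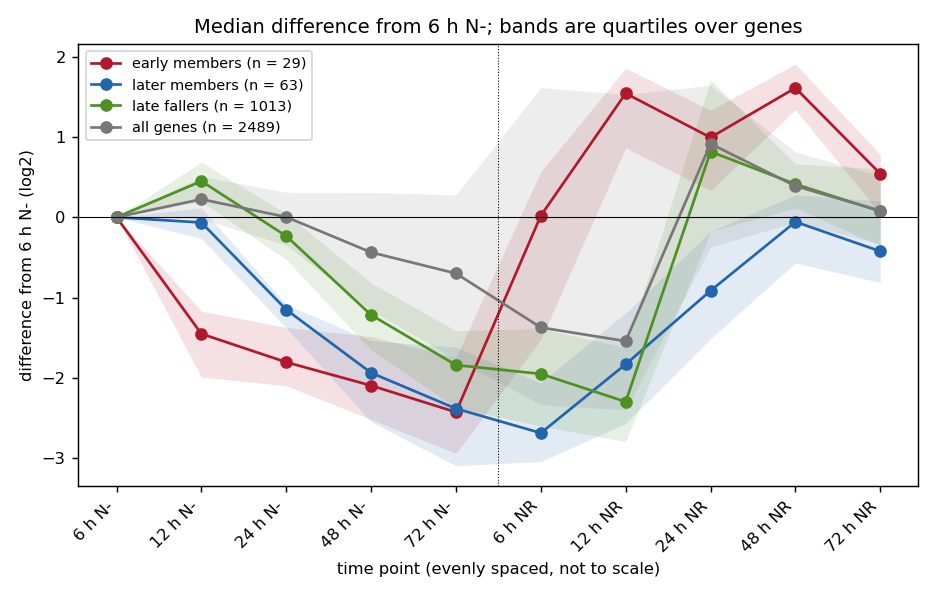
Median log2 difference from 6 h N- at each time point for early members, later members, genes lowered at 48 h or 72 h N- without being members (late fallers) and all 2489 genes, with bands for the quartiles over genes. Early members stood at 1.54 at 12 h NR, when later members were at -1.83 and late fallers at -2.30.

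Next to the 6 h N- level, 65 members were lower and 9 higher at 6 h NR. In all genes 30.0% were higher and a larger share lower (59.0%). At 12 h NR 52 were lower and 26 higher (all genes 61.9% and 30.1%). That balance turned with the scaling, to 24 lower and 36 higher (median), 25 and 36 (cluster medians), and 53 and 25 (upper quartile). All genes turned in the same way with the median centring, to 29.8% lower and 33.7% higher, so the turn is not particular to the members. By 24 h NR 29 were lower and 22 higher (13.5% and 47.5%), and the centrings gave 37 to 53 lower and 2 to 16 higher. With the median centring 23.0% of all genes were lower and 29.7% higher. At 48 h NR 10 were lower and 40 higher (6.63% and 18.8%), and at 72 h NR 9 were lower and 9 higher (3.74% and 9.20%). The numbers within 2-fold of 6 h N- were 18, 14, 41, 42 and 74 at these 5 times. The 9 that were lower at 72 h NR were later members, 8 of them of cluster 4. For the 82 members more than 2-fold below 6 h N- at 72 h N-, the first time back within that limit or above it was 6 h NR in 24, 12 h in 11, 24 h in 24, 48 h in 22 and 72 h in 1. Among the 25 early ones of these, 16 were back at 6 h and 8 at 12 h. Among the 57 later ones, 24 were back at 24 h and 21 at 48 h.

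**Figure D5:**
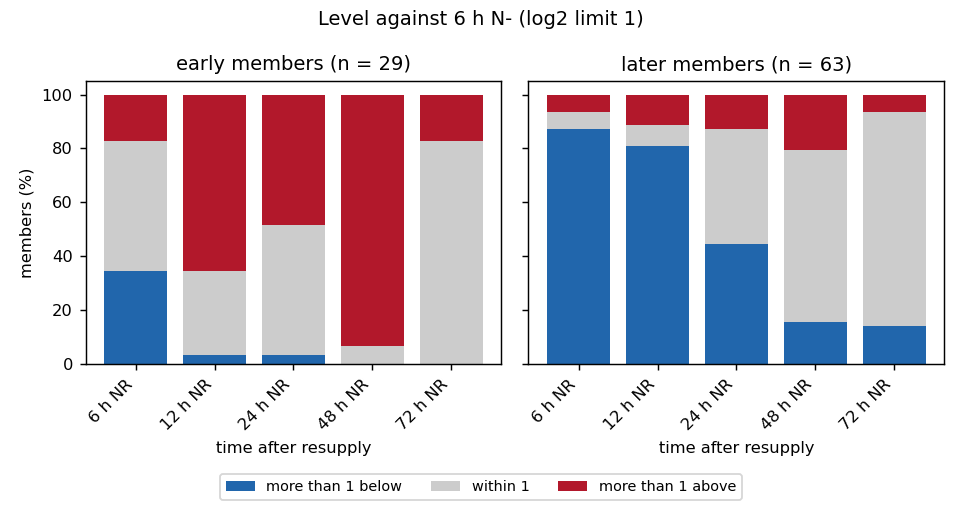
Share of early members (29) and later members (63) that were more than 1 below, within 1 of, or more than 1 above their 6 h N- level on the log2 scale at each time after resupply. At 48 h NR 27 early members were above the level, and of the later members 10 were below, 40 within and 13 above it.

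Resupply was also set against deprivation at the same hour. At 12 h 45 members were lower under resupply than under deprivation and 35 higher, against 62.8% and 31.3% of all genes. The balance turned with the scaling, to 19 lower and 38 higher (median), 25 and 38 (cluster medians), and 43 and 35 (upper quartile). The shares of all genes turned too, to 32.5% lower and 34.0% higher with the median centring. At 24 h the deposited counts were 3 and 44, against 10.5% and 44.0%, and the centrings gave 7 to 20 lower. At 48 h they were 1 and 79, against 8.40% and 47.9%, and the centrings gave 3 lower and 69 to 72 higher. With the median centring 18.2% of all genes were lower at 24 h and 18.3% at 48 h, when 21.8% were higher. At 6 h and 48 h together, 52 members (56.5%) were below deprivation at the first hour and above it at the second, each by more than 2-fold, as were 34.7% of all genes. Under the 3 centrings 34, 36 and 44 members were, and no share over all genes is given for these. Cluster 4 held 48 of the 52, and the median levels of its other 365 genes turned in the same way. By the end, at 72 h NR, 85 members were higher than at 72 h N- and 0 lower, against 47.2% and 7.87% of all genes, and both these values entered the choice of members.

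Genes that went down later in deprivation gave a contrast in resupply. There were 1013 genes that were not members but more than 2-fold below 6 h N- at 48 h or 72 h N-, and 5 of them are among the 6 genes left out by the last condition. Values at 6 h, 12 h and 24 h NR entered the forming of both sets only through the last condition, which moved those 5 genes. Over the step from 6 h to 12 h NR 143 of the 1013 went up and 290 down, and their median was -0.55, beside 0.94 in the members. Over the next step 847 went up and 1 down, and the median was 3.30, beside 0.11 in the members. After centring the second pair of medians lay between 1.53 and 2.43 for the 1013 genes and between -1.65 and -0.76 for the members. Their own highest deprivation value was exceeded by more than 2-fold at 48 h NR in 16 of the 1013 (1.58%) and in 36 members (39.1%). Of 993 of these genes that were lower at 72 h N-, 795 first came back at 24 h NR. Cluster 3 as a whole had a like course, with median levels of 7.34, 6.48 and 10.27 at 6 h, 12 h and 24 h NR. It held 8 of the 92 members. Whether the contrast goes with the cluster or with the time of the fall was not tested. The other 365 genes of cluster 4 were nearer to the later members. As deposited, the only scale on which these 365 were computed, their median was 0.83 from 6 h to 12 h NR and 1.06 from 12 h to 24 h. In the later members these were 0.54 and 0.64. With 1 value per time point these differences between gene sets have no test, and the sets were formed from profiles that the authors had already selected for a difference between resupply and deprivation.

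Most members that shared a contig had like profiles. On 7 contigs 15 members shared their contig with another, or 16.3% of the members. Of all 2489 genes, 1757 shared a contig with another gene of the tables, which a set of 92 cannot be compared with directly. The correlation over the 10 time points was 0.99 for the pairs on contigs 736, 1064, 3883 and 4100, 0.97 on contig 1017 and 0.95 on contig 851. On contig 4100 maker-nanno_4100-snap-gene-0.6 stood at 12.30, 9.94, 8.91, 8.94 and 8.39 in deprivation and at 9.09, 13.41, 13.09, 15.04 and 12.85 in resupply. Its neighbour in number, the augustus model named above, stood at 12.83, 10.63, 10.05, 9.70 and 8.77, and at 9.83, 14.85, 14.16, 16.61 and 14.15. The same times were high and low in both, and the augustus model was the higher at each time, by up to 1.56. Contig 445 held 3 members. The augustus gene and snap_masked-nanno_445-abinit-gene-0.9 had a correlation of 0.99 and the third had 0.79 and 0.78 with them, and the clustering had put the first in cluster 4 and the other two in cluster 3. Positions of the models on the contigs were not used here, so whether such pairs are separate transcripts was not tested.

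The size of the swings varied widely among the members. The difference between the lowest and the highest of the 10 values had a median of 3.30 on the log2 scale, from 1.36 to 8.23, beside 3.11 in all genes. The lowest value fell at 72 h N- in 46 members, at 6 h NR in 25, and at 48 h N- and 12 h NR in 8 each. Those are 50.0%, 27.2%, 8.70% and 8.70% of the members. In all genes the shares at the same times were 10.6%, 20.8%, 0.924% and 36.5%. Of the 92, 70 had a mean over the 10 time points of at least 7, and no such share over all genes is given. The median at 6 h N-, a value that chose the members, was 9.95, beside 9.51 in all genes. At other times it lay on either side of all genes, with 7.84 beside 9.00 at 48 h N- and 10.46 beside 9.73 at 48 h NR.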

How the data were processed

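RNA of Nannochloropsis oceanica CCMP1779 was sequenced in single-end reads of 50 bases, then processed, per the labels' protocols, with Trimmomatic 0.32 (trimming), STAR 2.3.0e (unique alignments to the genome of the strain) and HTSeq 0.6.1 (counts). The authors called genes with DESeq2 (log2 fold change over 1, adjusted p-value under 0.01) and split them into 4 clusters by k-means, per the labels' protocols. The deposited tables hold 1 value per gene and time point on a log2 scale, a unit inferred from values between 1.46 and 19.5. The sources used here do not give the library scaling, the transformation, or how 4 libraries became 1 value. Unique mapping would undercount near-identical genes, and a transformation that shrinks low counts would understate their differences. Value columns left unmatched numbered 0.

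Differences, counts past 1 on the log2 scale, medians and quartiles were computed with Python 3.11.15, numpy 2.4.6 and pandas 2.3.3, and the choice of members was tested on simulated data. Counts over all genes cover only the 2489 genes the authors called. Differences between time points were repeated with columns centred on the median over all genes, on the mean of the 4 cluster medians and on the upper quartile. This was done for the members, early and later members, late fallers and all genes. Values of single clusters, times of the lowest and highest value, first times back and counts above the highest deprivation value are on the deposited scale only. Relative to 6 h N- the median of all genes shifted by 0.19 at 12 h N-, -0.04 at 24 h N-, -0.84 at 72 h N-, -1.25 at 12 h NR and 0.22 at 48 h NR. Called genes are not neutral, so no scale is known to be right. Named genes are the 2 with the largest difference in each direction per comparison, the largest fall per cluster, the 2 nearest each side of the limit and the 2 most and least like the median profile; the smaller of the contig 445 and 4100 genes are named for their contigs, a choice made after their values were seen. The members, sets and comparisons were chosen with earlier results of these data known.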

Additional observations from a re-analysis of the deposited data

Results flagged for a closer look

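A contrast between hours drew attention. In 52 of the 92 members resupply lay below deprivation at 6 h but above it at 48 h, both by over 2-fold, against 34.7% of all genes. Of the 53 members of cluster 4, 48 turned in this way, as did 3 of the 8 in cluster 3, 1 of the 26 in cluster 1 and 0 of the 5 in cluster 2. The turn was not particular to the members of cluster 4. Its other 365 genes had median levels of 9.28 at 6 h N- and 6.75 at 6 h NR. At 48 h these were 7.69 under N- and 9.36 under NR. By timing, 42 of 63 later and 10 of 29 early members did. The difference between the hours was not tested, and the 6 h N- value also chose the members. Under the centrings on the median, the cluster medians and the upper quartile the number was 34, 36 and 44. For the centrings no share over all genes is given.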

How the results depend on the processing

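The number of members was 92 as deposited and 84, 63 and 86 with columns centred on the median, the cluster medians and the upper quartile, all of them among the 92. It was 169 with a limit of 0.8, 30 with 1.5, and 223 with 12 h N- as the reference, of which 43 were among the 92. A limit of 1.5 was also set on the steps alone, with the 92 members kept. The steps of deprivation from 6 h to 12 h, 12 h to 24 h and 24 h to 48 h then held 12, 14 and 9 lower members. In resupply 28 of the 92 were then higher at 12 h than at 6 h, 12 at 48 h than at 24 h, and 10 lower at 72 h than at 48 h. Centring moved the members lower at 24 h than at 12 h N- from 43 to 24 (cluster medians), and those lower at 48 h than at 24 h from 21 to 10 (median) and 12 (cluster medians). It moved those higher at 24 h than at 12 h NR from 26 to 6 (median), 11 (cluster medians) and 14 (upper quartile), and those higher at 48 h than at 24 h from 34 to 52 (median) and 61 (upper quartile). Those within 2-fold of 6 h N- at 12 h NR went from 14 to 32 (median) and 31 (cluster medians). Among members with a mean level of at least 7, the lower ones numbered 26 from 12 h to 24 h N- and 13 from 24 h to 48 h, and those higher from 12 h to 24 h NR numbered 13. In cluster 4 alone 10 were lower at 12 h N-, 5 higher at 6 h NR than at 72 h N-, 17 higher at 24 h than at 12 h NR and 14 lower at 72 h than at 48 h. The restrictions to cluster 1 or cluster 4, the removal of shared contigs and the comparison at matched hours were chosen after seeing the data. So were other limits for early members. With these the medians of 12 h NR against 72 h N- were 3.33 (early) and 0.48 (later) at 0.8, and 4.86 and 0.94 at 1.5. Fewer genes or a stricter limit lower a count by construction, and for the centrings the cause was not tested. The other 52 alternative counts stayed within 1.5 times. No paired analysis was possible because the tables hold 1 value per time point, and leaving out libraries was not run for the same reason.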
